A study of Mus musculus with 8 samples.

Results

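Siglech, Bst2, Lag3, Lair1, Cd300c, Klk1, Cox6a2, Pacsin1, Pld4 and Upb1 are genes by which mouse plasmacytoid dendritic cells (pDC) are commonly recognised. They were read from all 14 array probes that carry their names, and they make up 10 of the 36095 genes and other features on the array. Where a gene had several probes, the brightest over all samples stood for it. The cells came from bone marrow of female BALB/c mice, differentiated in culture with mFlt3-L (mouse Flt3 ligand), and were sorted magnetically and by flow cytometry into Sca-1- and Sca-1+ pDC. Each group has 4 samples, numbered 1 to 4, and per the file headers both samples of a number were hybridised on the same slide. All 8 samples share the strain, sex and culture, no treatment is named for either group, and "Sca-1-" and "Sca-1+" state a surface phenotype and no engineered allele. The age of the mice and the antibodies used besides Sca-1 are not given in the sources used here. The comparison asks which of these genes differ between the stages that the study's title says Sca-1 defines.

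pDC are the blood-borne dendritic cells that answer viral RNA and DNA with large amounts of type I interferon, through Toll-like receptors in their endosomes. Several of their surface receptors restrain that response. Siglec-H signals through the adaptor DAP12 (Tyrobp), Lair1 binds collagen and recruits tyrosine phosphatases such as Ptpn6, and Lag3 binds MHC class II. The other genes act elsewhere in the cell: Pld4 digests single-stranded nucleic acids in lysosomes, Pacsin1 bends membranes during endocytosis, Upb1 breaks down pyrimidines, Cox6a2 is a mitochondrial subunit, and Klk1 is a secreted protease.

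A level here is the log2 of a probe's processed intensity minus the log2 75th percentile of that array, so a difference of 1 is a doubling. Levels compare samples for the same probe and do not rank genes. A call is an adjusted p under 0.05 in limma, a linear model that pools the spread over genes, with Benjamini-Hochberg adjustment over 19818 tested genes. The unpaired fit is the main one, and a second fit, blocked by slide, compares both samples of a slide. All 14 probes were well above background on 8 of 8 arrays, so all 10 genes were tested. The labels do not say whether samples of a group are separate cultures or mice, so each p-value reflects the spread among these samples alone, and that spread may be technical. In sorted bulk samples, fewer cells that express a gene and less RNA per cell cannot be told apart.

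The sort was visible in the arrays. Ly6a, which encodes Sca-1, lay at 3.14, 3.1, 2.67 and 2.21 in the Sca-1- samples and at 7.38, 7.82, 7.35 and 7.17 in the Sca-1+ samples. All 12 of 12 pDC markers were detected in both groups. Their summed signal was 1876 to 2625 times the array's 75th percentile in Sca-1- and 2163 to 2728 times in Sca-1+ samples. Siglech and Bst2, which are among the genes studied here, belong to that list, so the sum is not independent of their values. Conventional dendritic cell markers (10 of 12 tested, Xcr1 not well above background on any array) summed to 140 to 167 and 143 to 166 on the same scale. Itgax was the brightest of them, and Clec9a was well above background on 8 of 8 arrays. Clec9a read 3.04, 3.37, 2.18 and -0.0091 in Sca-1- and 3.59, 3.85, 2.72 and 0.093 in Sca-1+ samples, lowest on slide 4 in both groups. None of these 10 was called in the unpaired fit. Limma with both samples of a slide paired called 2.10% of all tested genes higher and 4.12% lower, and 5 of these 10. Of those, Itgae (0.97, adjusted p = 0.0162), Sirpa (0.54, 0.0420) and Id2 (0.54, 0.0485) were higher in Sca-1+, and Zbtb46 (-1.20, 0.0131) and Cd24a (-0.87, 0.0167) were lower. Of the monocyte and macrophage markers, Csf1r alone was called in that paired fit (-1.19, adjusted p = 0.00637 in limma, 0.171 unpaired), and its groups did not overlap. The part of other cell types in the members' values was not tested. Neutrophil markers (6 of 10 tested) gave sums of 139 to 303 in Sca-1- and 169 to 315 in Sca-1+ samples, with Csf3r as the brightest. Csf3r read 7.07 to 8.21 and 7.38 to 8.26, and none of the 6 was called in either fit. The array on slide 4 was extracted with another protocol version and scanned on a separate day from those on slides 1 to 3, per the file headers, for both groups alike. Markers of other cells differed there too. Mcpt8, a basophil marker, read 3.15, 1.39, 2.43 and -4.09 in Sca-1- and 3.59, 1.28, 1.90 and -4.27 in Sca-1+ samples. Ccr2, the brightest monocyte and macrophage marker, was highest on slide 4 in each group, at 5.93 and 6.06. The part of cell composition in the slide 4 readings was not tested. On every slide the Sca-1- sample took the first array position and the Sca-1+ sample the second, so position and group cannot be told apart.

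All 10 genes had a higher mean in Sca-1+ pDC, with small differences of 0.14 to 0.81 on the log2 scale and a median of 0.26. Over all tested genes 55.4% had a higher mean in Sca-1+, and the median difference was 0.029. None of the 10 was called in the unpaired fit, where limma called 0.126% of all tested genes higher and 1.58% lower (1.71% in all). At an unadjusted p under 0.05 the unpaired fit held Lag3 and Klk1, while 8.96% of all tested genes reached that level in either direction and 3.12% as higher. With the slide as a block, Lag3 alone was called higher, against 2.10% of all tested genes, and none was called lower, against 4.12%. Of the 10 genes, 6 were higher in Sca-1+ on all 4 slides, namely Siglech, Lag3, Lair1, Klk1, Pld4 and Upb1, whereas 18.4% of all tested genes were. Per slide, the median over the 10 genes was 0.53, 0.14, 0.27 and 0.25 on slides 1 to 4, and the median over all tested genes was 0.069, -0.037, 0.018 and 0.014.

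**Figure D1:**
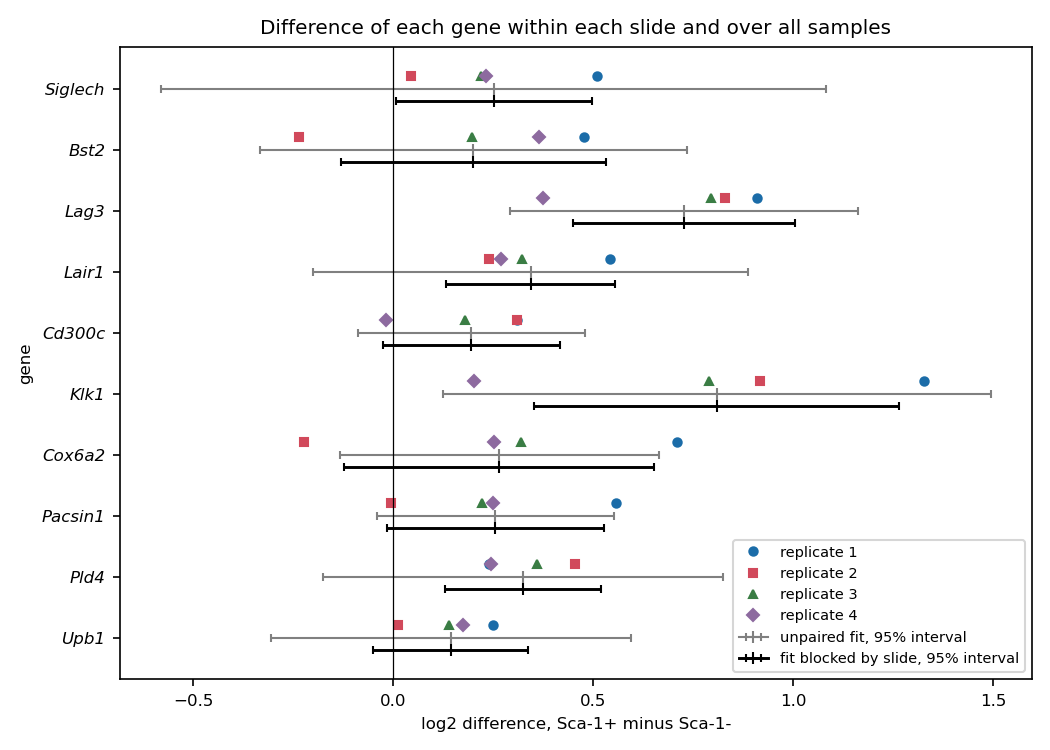
Difference of each of the 10 genes between Sca-1+ and Sca-1- pDC (horizontal axis, log2 difference, Sca-1+ minus Sca-1-). Symbols are the 4 slides, and bars are the estimate with its 95% interval in the unpaired fit (grey) and in the fit blocked by slide (black). Lag3 and Klk1 lie farthest to the right, at 0.73 and 0.81, and Bst2 and Cox6a2 each have slide 2 below 0, at -0.24 and -0.22.

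The sequences shown first are those on which the readings of Lag3, Klk1 and Siglech rest. The Lag3 probe is the array's only one for the called gene. It is printed as the array design gives it, from chr6:124854570-124854866 (mm9, minus strand), and its 60 bases span 297 bases of genome, so they come from more than 1 genomic block.
Lag3: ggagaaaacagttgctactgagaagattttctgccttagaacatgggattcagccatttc

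The Klk1 probe is set beside the 3 Klk1b probes with which it shares the longest runs, because these paralogous kallikreins are close copies of each other. Capitals mark the longest run of bases that each Klk1b probe shares with the Klk1 probe, and in the Klk1 probe the run shared with Klk1b4. The positions are chr7:51484170-51484325 for Klk1, chr7:51466302-51466457 for Klk1b4, chr7:51209619-51209678 for Klk1b8 and chr7:51361257-51361316 for Klk1b21 (mm9, plus strand).
Klk1: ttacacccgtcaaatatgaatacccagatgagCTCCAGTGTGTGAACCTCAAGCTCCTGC
Klk1b4: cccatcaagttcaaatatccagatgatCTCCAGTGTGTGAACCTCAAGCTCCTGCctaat
Klk1b8: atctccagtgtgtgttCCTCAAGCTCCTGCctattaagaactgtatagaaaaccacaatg
Klk1b21: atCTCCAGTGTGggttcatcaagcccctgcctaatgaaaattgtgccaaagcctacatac
The shared run is 28 bases for Klk1b4 (bases 33 to 60 of the Klk1 probe, counted from its 5′ end), 14 for Klk1b8 and 10 for Klk1b21. For the other 13 Klk1b probes the longest exact run shared with it is 5 or 6 bases. A run ends at the first mismatch, so its length does not measure how alike the probes are. The Klk1b8 probe, for example, also matches the Klk1 probe before its marked run.

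The brightest Siglech probe ends in a simple repeat, bases 39 to 60 from its 5′ end, which is shown because other probes hold it too.
Siglech bases 39 to 60: aaagaaagaaagaaagaaagaa
The same 22 bases occur in a probe for Rgs7bp, their complement in a probe for Ulk3, and 21 of them in a probe for Chat. Among the members' probes, only this one and that of Klk1 share an unbroken run of 20 or more bases with a probe of another name.

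Siglech, a receptor of the Siglec family that marks mouse pDC, did not differ by a call between the groups, and its 3 probes gave differences of 0.25, 0.29 and 0.13. Its brightest probe (chromosome 7, 63034088 to 63034147, mm9, plus strand) read 9.16, 9.33, 9.17 and 8.09 in Sca-1- replicates 1 to 4. In Sca-1+ replicates 1 to 4 it read 9.67, 9.37, 9.39 and 8.32. Both samples of slide 4 stood low, and the groups overlapped. The difference was 0.25 ± 0.36 (SE, n = 4 per group, adjusted p = 1.00 in limma), with a 95% interval of -0.58 to 1.08. With the slide as a block its standard error was 0.10 and the adjusted p in limma 0.197. Without Sca-1- replicate 4 the unpaired difference turned to -0.032, although the Sca-1+ sample was the higher on each slide, by 0.51, 0.044, 0.22 and 0.23.

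The other Siglech probes read differently on slide 4. The second probe (chromosome 7, 63033826 to 63033885) read 8.14, 8.11, 8.19 and 8.52 in Sca-1- and 8.54, 8.57, 8.36 and 8.65 in Sca-1+ samples. Here both slide 4 samples stood highest in their group. Its difference of 0.29 ± 0.14 (SE, n = 4 per group) had an adjusted p of 0.697 in limma fitted to each probe on its own, and 0.148 with the slide as a block. The third probe (chromosome 7, 63028608 to 63028667) read 3.37, 3.39, 3.20 and 3.13 against 3.59, 3.42, 3.28 and 3.30. Every slide gave a higher Sca-1+ value with each of the 3 probes.

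Against the mean of slides 1 to 3, slide 4 read lower by a log2 difference of -1.13 (Sca-1-) and -1.16 (Sca-1+) with the first probe, and higher by 0.37 and 0.16 with the second. The processed intensity of the first probe stayed between 97765 and 135150 on all 8 arrays, while the 75th percentile ranged from 152 to 434 and was highest in both slide 4 samples. No spot was marked saturated, and each array held brighter probes, up to 339726 or more. The Rgs7bp probe with the same 22-base repeat read 6.34, 7.10, 6.40 and 5.42 in Sca-1- and 7.49, 6.64, 6.98 and 6.09 in Sca-1+ samples, with its lowest value of each group on slide 4. Its level correlated with the first Siglech probe at r = 0.91 over the 8 arrays, the Ulk3 probe at 0.84 and the Chat probe at -0.30. The part of the repeat, of the protocol version and of the intensity range in these readings was not tested.

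**Figure D2:**
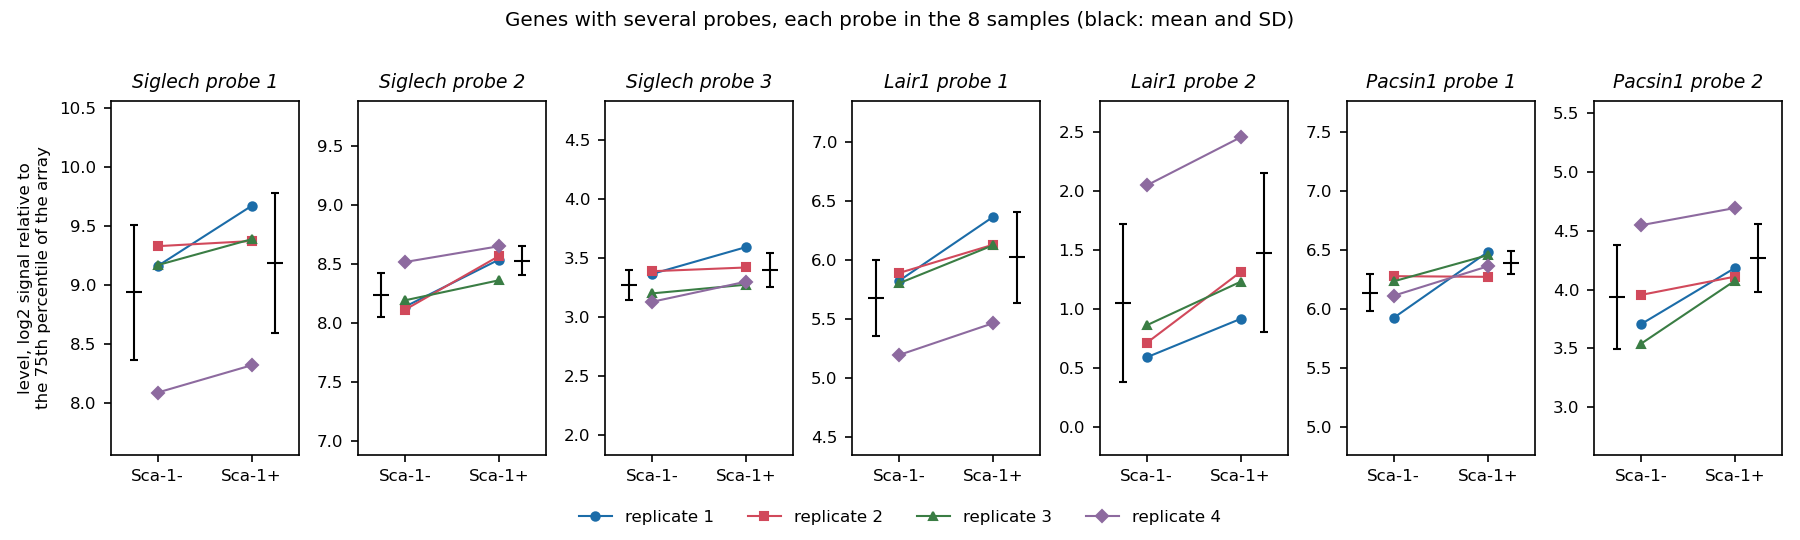
Level of each probe of the genes with several probes in the 8 samples (vertical axis, log2 signal relative to the array's 75th percentile). Lines join both samples of a slide, and black marks are the mean and SD of 4 samples. Slide 4 (diamonds) lies below the other slides with Siglech probe 1 and Lair1 probe 1 and above them with Siglech probe 2, Lair1 probe 2 and Pacsin1 probe 2 in each group.

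Bst2, also called tetherin or PDCA-1, holds budding virus particles at the membrane and is induced by interferon, and it did not differ by a call. Its probe (chromosome 8, 74058603 to 74058662, mm9, minus strand) read 8.35, 9.04, 8.49 and 7.98 in Sca-1- replicates 1 to 4. The Sca-1+ values were 8.83, 8.81, 8.69 and 8.34. The highest sample of all was Sca-1- replicate 2, and the groups overlapped. The difference of 0.20 ± 0.23 (SE, n = 4 per group) had a 95% interval of -0.33 to 0.73 and an adjusted p of 1.00 in limma. Slides 1, 3 and 4 gave 0.48, 0.20 and 0.36 in favour of Sca-1+, and slide 2 gave -0.24.

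The 250 bases before the start of Bst2 are printed because Irf7, a transcription factor that binds interferon-response elements, was called higher in Sca-1+ with the slide as a block while Bst2 was not. The stretch is chr8:71537473-71537722 (GRCm38.p6, minus strand, from RefSeq), and capitals mark a match to the core of such an element, GAAA, then 2 bases of any kind, then GAAA.
Bst2 upstream: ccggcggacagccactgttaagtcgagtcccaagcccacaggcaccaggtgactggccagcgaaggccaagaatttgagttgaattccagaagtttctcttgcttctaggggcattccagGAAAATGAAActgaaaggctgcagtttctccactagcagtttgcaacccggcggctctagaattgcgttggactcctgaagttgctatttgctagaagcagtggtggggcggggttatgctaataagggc
The marked match lies 130 to 121 bases before the start. Its closing GAAA, with the ctgaaa that follows, makes another match that overlaps it and is only partly in capitals. On either strand the motif occurred in 2 of the 8 members that have a promoter entry (Bst2 and Cd300c) and in 2.98% of all 32851 promoter windows of this length. CANNTG, the E-box letters bound by Tcf4 and related factors, occurred in 6 of those 8 (Siglech, Bst2, Lair1, Cd300c, Klk1 and Pld4) and in 66.2% of the windows. A member was counted if any of its promoter entries matched, while the percentages are shares of single windows, so the units differ. The GAAA pair was searched on both strands, CANNTG reads alike on both, and a match is a description of letters, not of binding. Irf7 itself read 4.08, 4.37, 3.57 and 4.23 in Sca-1- and 4.89, 5.50, 4.61 and 5.0 in Sca-1+ samples. That difference of 0.94 ± 0.24 (SE, n = 4 per group) had an adjusted p of 0.143 in limma, and of 0.00606 with the slide as a block.

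Lag3, the CD4-related receptor for MHC class II, was the member whose groups did not overlap. The Sca-1- samples read 0.41, 0.68, 1.02 and 1.08. All Sca-1+ samples were above these, at 1.32, 1.51, 1.82 and 1.45. Among all tested genes, 1.91% were higher in Sca-1+ with no overlap and 5.03% were lower. Lag3 was 1.66-fold higher in Sca-1+ (log2 difference 0.73 ± 0.19 SE, n = 4 per group, 95% interval 0.29 to 1.16), which the unpaired fit did not call (adjusted p = 0.155 in limma). It rose by 0.91, 0.83, 0.80 and 0.37 on slides 1 to 4, and blocked by slide the adjusted p in limma was 0.0250. That call was lost on leaving out slide 1, 2 or 3 (adjusted p of 0.0993, 0.0834 and 0.141), and kept without slide 4 (0.0212).

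Lag3 is also made by T and NK cells. Of 15 T and NK markers, 8 were tested and none was called in either fit. Their summed signal was 22.7 to 29.4 times the array's 75th percentile in Sca-1- and 29.7 to 31.5 times in Sca-1+ samples, without overlap. Its brightest gene was Cd4, which mouse pDC express too, and Cd3d, Cd3g, Ncr1, Klrb1c and Eomes were not well above background on any array. Cd3e, Cd5, Nkg7, Klrk1, Lck, Cd2 and Zap70 were well above background on 8 of 8 arrays. Of the 8 tested, 6 had a higher mean in Sca-1+. Cd5 (0.48), Klrk1 (0.69) and Cd4 were higher on all 4 slides, and Cd2 (-0.46) and Zap70 (-0.70) had a lower mean. The Cd4 level was 2.88, 3.35, 3.14 and 3.02 in Sca-1- and 3.39, 3.51, 3.42 and 3.13 in Sca-1+ samples (difference 0.27 ± 0.15 SE, n = 4 per group, adjusted p = 0.75 in limma). The part of such cells in the Lag3 value was not tested.

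The 5 features whose levels followed Lag3 most closely over the 8 arrays had Pearson correlations of 0.97 to 0.98. They were Gm4610 (0.98), Apobec1 (0.97), an RNA-editing cytidine deaminase, Tubb2a (0.97), a tubulin, and 2 transcripts that the array names only by position on chromosome 12 (0.98 and 0.97). Apobec1 was 1.07 higher in Sca-1+ (adjusted p = 0.149 in limma, 0.0342 with the slide as a block), and Gm4610 was 1.21 higher (0.148 and 0.0105). Tubb2a differed by 0.28, with adjusted p of 0.548 and 0.111 in those fits. These points share slides, arrays and groups, so the correlations are a description. The known Lag3 partner Fgl1, a soluble ligand, differed by -0.18 ± 0.21 (SE, n = 4 per group, adjusted p = 1.00 in limma), and Adam10, a protease that sheds Lag3, by 0.07 ± 0.11 (adjusted p = 1.00).

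Lair1, the collagen receptor with inhibitory motifs, was higher on every slide with both of its probes, and neither fit called it. Its brighter probe (chromosome 7, 3959675 to 3959734, mm9, minus strand) read 5.83, 5.89, 5.80 and 5.20 in Sca-1- and 6.37, 6.13, 6.13 and 5.47 in Sca-1+ samples. Replicate 4 was the lowest of each group, so the groups overlapped. The difference was 0.34 ± 0.24 (SE, n = 4 per group, 95% interval -0.20 to 0.89), with an adjusted p of 0.887 in limma and 0.0790 with the slide as a block. Its second probe (chromosome 7, 3959434 to 3959493) read 0.59, 0.72, 0.87 and 2.05 in Sca-1- and 0.92, 1.32, 1.23 and 2.46 in Sca-1+ samples. With it, slide 4 was the highest of each group, the reverse of the first probe. The differences per slide were 0.54, 0.24, 0.32 and 0.27 with the first probe and 0.33, 0.60, 0.37 and 0.41 with the second.

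Cd300c, an immunoglobulin-like receptor of the CD300 family on leukocytes, was not called. Its probe (chromosome 11, 114821230 to 114821731, mm9, minus strand) spans 502 bases of genome. Sca-1- samples read 1.76, 1.83, 2.03 and 2.00, and Sca-1+ samples read 2.06, 2.14, 2.21 and 1.99. Sca-1+ was higher on slides 1 to 3, by 0.31, 0.31 and 0.18, and slide 4 gave -0.017. The difference over all samples was 0.20 ± 0.12 (SE, n = 4 per group, 95% interval -0.09 to 0.48, adjusted p = 0.836 in limma).

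The adaptors and relatives of these receptors were not called in either fit. Tyrobp, the DAP12 adaptor of Siglec-H, read 9.60, 10.11, 9.88 and 9.02 in Sca-1- and 10.07, 9.90, 9.92 and 9.15 in Sca-1+ samples, a difference of 0.11 ± 0.28 (SE, n = 4 per group, adjusted p = 1.00 in limma). Fcer1g, a related adaptor, differed by -0.28 ± 0.18, and Ptpn6, the phosphatase that Lair1 recruits, by 0.05 ± 0.14. Cd300lf, a CD300 relative with inhibitory motifs, read 5.60, 5.62, 5.54 and 5.61 in Sca-1- and 5.99, 6.01, 5.81 and 5.96 in Sca-1+ samples. Its groups did not overlap, and its difference of 0.35 ± 0.11 (SE, n = 4 per group) had an adjusted p of 0.291 in limma and 0.0534 with the slide as a block. Cd22, a Siglec that restrains B cell receptor signals, differed by 0.46 ± 0.15 (SE, n = 4 per group, adjusted p = 0.294 in limma).

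**Figure D3:**
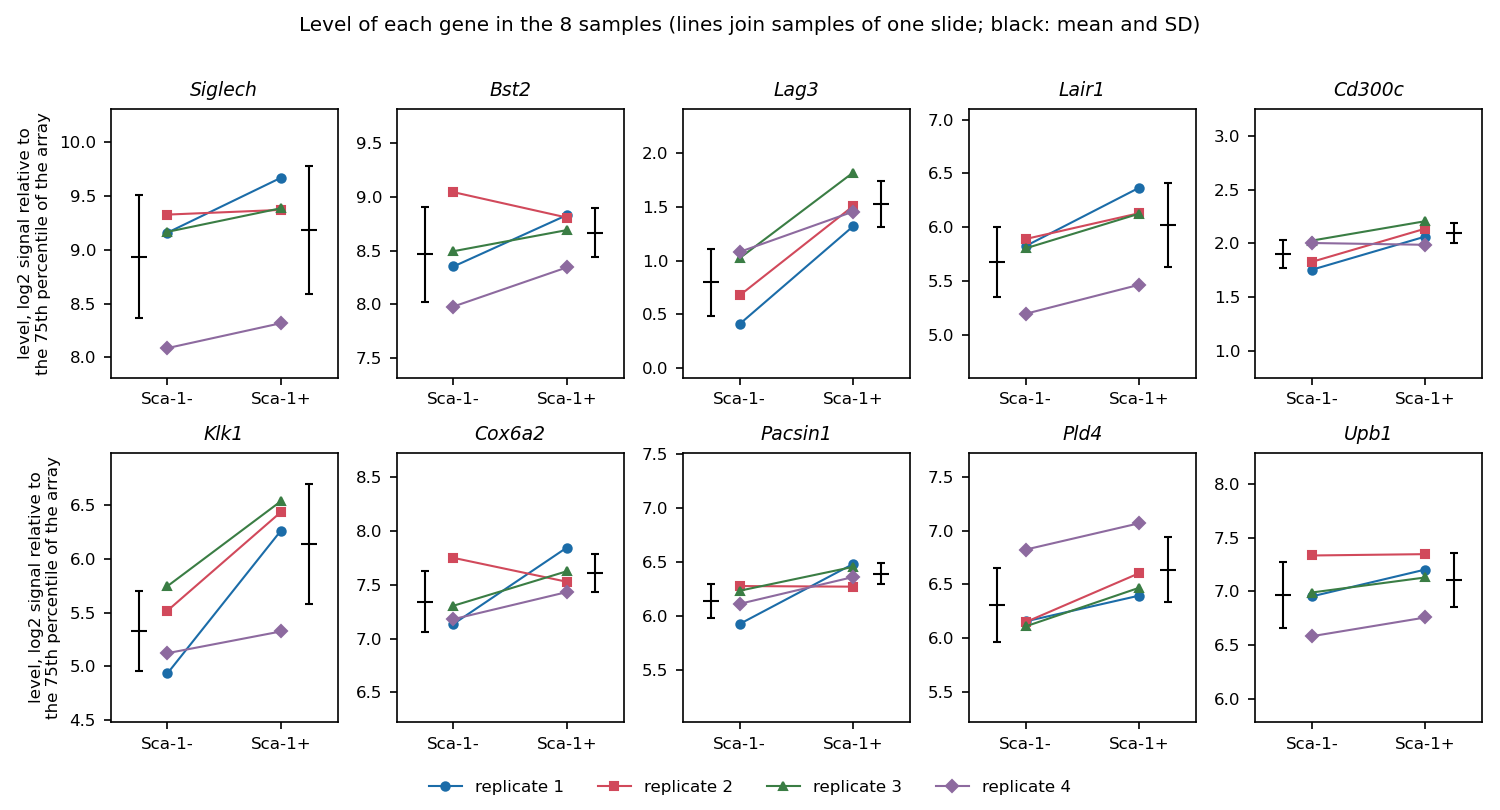
Level of each of the 10 genes in the 8 samples (vertical axis, log2 signal relative to the array's 75th percentile, each panel spanning the same range). Lines join both samples of a slide, and black marks are the mean and SD of 4 samples per group. The Sca-1+ samples all lie above the Sca-1- samples for Lag3 alone, and both slide 4 samples stand apart for Siglech, Bst2, Lair1, Pld4 and Upb1.

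Klk1, tissue kallikrein, a serine protease that frees kinins from kininogen, had the largest mean difference of the 10 genes. Its probe read 4.93 in Sca-1- replicate 1, then 5.52, 5.75 and 5.12 in replicates 2 to 4. Sca-1+ replicates 1 to 4 read 6.26, 6.43, 6.54 and 5.33. On slides 1 to 3 the Sca-1+ samples were above every Sca-1- sample, and Sca-1+ replicate 4 lay among the Sca-1- samples. The level was 1.75-fold higher in Sca-1+ (log2 difference 0.81 ± 0.30 SE, n = 4 per group, 95% interval 0.12 to 1.49), which neither fit called (adjusted p = 0.409 in limma, and 0.0642 with the slide as a block). The slides gave 1.33, 0.92, 0.79 and 0.20, and without slide 4 the unpaired difference was 1.01 and called (adjusted p = 0.0498).

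The Klk1b paralogs, a cluster of kallikrein genes next to Klk1 on mouse chromosome 7, gave similar differences. Of 13 listed, 12 were tested, and all 12 had a higher mean in Sca-1+, by 0.75 to 0.94 with a median of 0.81. Neither fit called any of them, and 9 of 12 were higher on all 4 slides. Their median difference was 1.34, 0.78, 0.86 and 0.25 on slides 1 to 4. Without slide 4, 8 of the 12 were called higher in the unpaired fit, and 8 with the slide as a block.

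Klk1b4 and Klk1b5 are given as examples of a long and a short run shared with the Klk1 probe. Klk1b4, whose probe holds the 28-base run printed above, read 3.02, 3.57, 3.89 and 3.47 in Sca-1- and 4.70, 4.55, 4.71 and 3.75 in Sca-1+ samples, a difference of 0.94 ± 0.27 (SE, n = 4 per group) with an adjusted p of 0.205 in limma. Klk1b5 shares no run over 6 bases with the Klk1 probe and read 5.99, 6.51, 6.50 and 6.13 against 7.37, 7.23, 7.44 and 6.32. Its difference was 0.81 ± 0.27 (SE, n = 4 per group, adjusted p = 0.313 in limma). Correlations with the Klk1 level over the 8 arrays, for the Klk1b probes well above background on at least 4 arrays, ran from 0.86 (Klk1b27) to 0.99 (a probe of Klk1b26). The shared runs compare probe with probe and not probe with transcript, and they end at each mismatch. They therefore cannot tell probes that bind other paralogs from probes that do not. How far each probe binds transcripts of the other paralogs was not tested. Kallikreins outside the Klk1b cluster differed by 0.36 ± 0.36 (Klk4) and -0.05 ± 0.18 (Klk10), and neither was called.

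**Figure D4:**
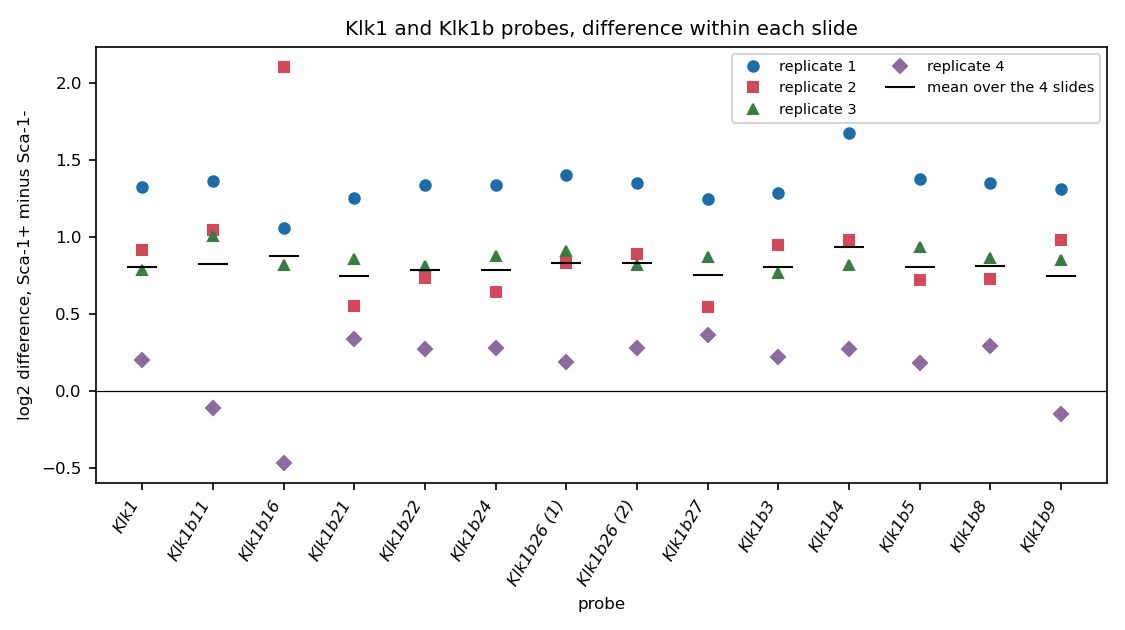
Difference within each slide for Klk1 and for the detected Klk1b probes (vertical axis, log2 difference, Sca-1+ minus Sca-1-). Symbols are slides and black lines their mean. For Klk1 the values are 1.33, 0.92, 0.79 and 0.20 on slides 1 to 4, and slide 4 (diamonds) is the lowest for every probe.

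Pld4, the lysosomal exonuclease that removes single-stranded DNA and RNA sensed by Toll-like receptors, was higher in Sca-1+ on each slide, and neither fit called it. Its probe (chromosome 12, 114006018 to 114006077, mm9, plus strand) read 6.16, 6.15, 6.11 and 6.82 in Sca-1- samples. In Sca-1+ samples it read 6.40, 6.60, 6.47 and 7.07. Slide 4 was the highest of both groups, and the steps within slides were even, at 0.24, 0.45, 0.36 and 0.24. The difference of 0.32 ± 0.22 (SE, n = 4 per group, 95% interval -0.18 to 0.83) had an adjusted p of 0.872 in limma. With the slide as a block its standard error was 0.08 and the adjusted p in limma 0.0751. Its relative Pld3, which acts on the same substrates, read 0.62, 0.77, 0.73 and 1.25 in Sca-1- and 1.15, 0.82, 0.81 and 1.43 in Sca-1+ samples (difference 0.21 ± 0.20 SE, n = 4 per group, adjusted p = 1.00 in limma).

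Upb1, beta-ureidopropionase, which completes the breakdown of uracil to beta-alanine, differed least. Its probe (chromosome 10, 74902842 to 74902901, mm9, plus strand) read 6.95, 7.33, 6.99 and 6.58 in Sca-1- and 7.20, 7.35, 7.13 and 6.76 in Sca-1+ samples. Each slide was slightly higher in Sca-1+, by 0.25, 0.012, 0.14 and 0.17, and the groups overlapped. The difference was 0.14 ± 0.20 (SE, n = 4 per group, 95% interval -0.31 to 0.59, adjusted p = 1.00 in limma). Dpyd and Dpys, the enzymes of the preceding steps, were well above background on under 4 arrays and were not tested.

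Cox6a2, the heart and muscle form of a cytochrome c oxidase subunit, was not called. Sca-1- samples read 7.14, 7.75, 7.31 and 7.18 at its probe (chromosome 7, 135349160 to 135349219, mm9, minus strand), and Sca-1+ samples read 7.85, 7.53, 7.63 and 7.43. Slide 1 was 0.71 higher in Sca-1+ and slide 2 was -0.22, so the direction differed between slides. The difference over all samples was 0.27 ± 0.17 (SE, n = 4 per group, 95% interval -0.13 to 0.66, adjusted p = 0.861 in limma). Cox6a1, the widely expressed form of the same subunit, read 8.33, 8.62, 8.18 and 7.94 in Sca-1- and 8.39, 8.09, 8.09 and 7.84 in Sca-1+ samples, a difference of -0.17 ± 0.18. Cox7a1, a muscle-type subunit, was the only partner or paralog called, and it fell by 1.28 (n = 4 per group). In limma with the slide as a block the SE was 0.15 and the adjusted p 0.0115. Without the block they were 0.30 and 0.107 in limma. Its levels were -0.93, -1.24, -1.46 and -2.30 in Sca-1- and -2.40, -2.56, -3.07 and -3.05 in Sca-1+ samples, without overlap. The blocked call was lost on leaving out slide 1, 2 or 3.

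Pacsin1, an F-BAR protein of endocytosis that is abundant in neurons, was not called with either of its probes. The brighter one (chromosome 17, 27845530 to 27845589, mm9, plus strand) read 5.92, 6.28, 6.23 and 6.11 in Sca-1- and 6.48, 6.27, 6.45 and 6.36 in Sca-1+ samples. Slide 2 gave -0.0056, and slides 1, 3 and 4 gave 0.56, 0.22 and 0.25. The difference was 0.26 ± 0.13 (SE, n = 4 per group, 95% interval -0.04 to 0.55, adjusted p = 0.688 in limma). Its second probe (chromosome 17, 27847992 to 27848051) read 3.71, 3.95, 3.54 and 4.54 against 4.18, 4.11, 4.08 and 4.69. With this probe slide 4 was highest in each group, which it was not with the brighter one. Pacsin2, the broadly expressed paralog, had the opposite sign at -0.22 ± 0.16 (SE, n = 4 per group, adjusted p = 0.910 in limma).

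Over the whole list of 62 partners and paralogs, 49 were tested, 34 had a higher mean in Sca-1+ (55.4% of all tested genes), and the median difference was 0.12. All 12 tested Klk1b paralogs, whose levels followed that of Klk1, were among these 34. At an unadjusted p under 0.05 the unpaired fit held 8 of the 49, 4 of them Klk1b paralogs, against 8.96% of all tested genes. The unpaired fit called 0 of 49, and the fit blocked by slide called 1, Cox7a1. Both shares were compared with the background of 0.126% higher and 1.58% lower calls without the block, and 2.10% and 4.12% with it.

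Of 48 other genes linked to pDC, 46 were tested, and 37 of them had a higher mean in Sca-1+ with a median of 0.22. Over all tested genes 55.4% had a higher mean, and 0.126% were called higher in the unpaired fit. The unpaired fit called Dntt, the DNA polymerase that adds bases at antigen receptor joints, which rose from 0.94, 0.46, 1.07 and 1.95 to 3.04, 2.68, 2.53 and 2.85 (3.18-fold, adjusted p = 0.0314 in limma). That call was lost without any one of the samples other than Sca-1- replicate 4. With the slide as a block 8 rose and 1 fell, against 2.10% and 4.12% of all tested genes. The rises were Irf7 (0.94), Dntt (1.67), Grm8 (1.35), Tlr7 (0.58), the endosomal RNA sensor, Ly6c1 (0.56), Ccr9 (0.55), a chemokine receptor of pDC, Rpgrip1 (0.54) and Ctsl (0.44), a lysosomal protease. Ptprf, a receptor phosphatase, fell by 0.48. Leaving out slide 1 or 2 left 1 rise (Irf7), and leaving out slide 3 left 0.

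Of the transcription factors tied to pDC identity, Tcf4, Irf8, Runx2, Spib and Bcl11a were not called in either fit. Tcf4, the master regulator of pDC, read 6.36, 6.15, 5.92 and 6.44 in Sca-1- and 6.53, 6.05, 6.05 and 6.50 in Sca-1+ samples, a difference of 0.06 ± 0.18 (SE, n = 4 per group, adjusted p = 1.00 in limma). Irf8 differed by -0.0048 ± 0.19, Runx2 by -0.04 ± 0.11 and Spib by 0.20 ± 0.16. Bcl11a read 5.83, 5.91, 5.71 and 5.71 in Sca-1- and 5.67, 5.70, 5.43 and 5.64 in Sca-1+ samples, without overlap and lower on all 4 slides. Its difference was -0.18 ± 0.12 (SE, n = 4 per group, adjusted p = 0.889 in limma, 0.228 with the slide as a block). A missed threshold does not show equal levels.

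**Figure D5:**
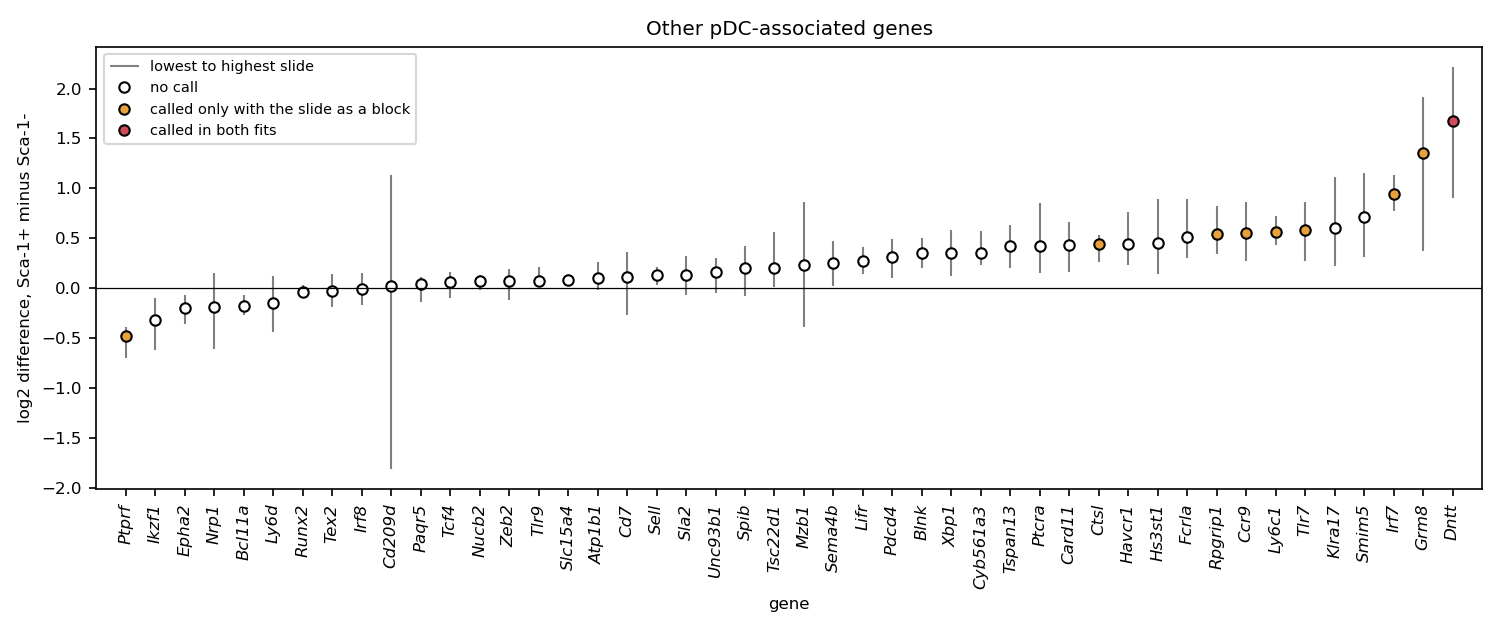
Difference of 46 other pDC-linked genes, ordered by size (vertical axis, log2 difference, Sca-1+ minus Sca-1-). Circles are means over 4 slides and lines run from the lowest to the highest slide, filled circles being called. Dntt (1.67) is called in both fits, 8 more only with the slide as a block, and Ptprf (-0.48) is the one called lower.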

How the data were processed

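Cy3-labelled cRNA of 8 samples, made from 100 ng of RNA each per the labels' protocols, was read on single-colour Agilent arrays. A preceding amplification of polyA RNA is named in the sample descriptions, with no word on how it relates to this labelling. The deposited spot intensity is on a linear scale and was background-corrected by the authors with Feature Extraction 10.7.3.1, and positions are mm9, per the file headers. The deposited series table holds log2 values by the authors, which correlated with their own arrays at 0.998 to 1.00. Its scale was read from that match, and it served only as an alternative. Other deposited spot columns are marks for control, outlier, saturated and background status.

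Of 62976 spots per array, 59305 were not controls, 105 to 162 outlier spots were left out, and 45.9% to 54.9% were well above background. The number of arrays limits the precision. Each array's 75th percentile was subtracted on the log2 scale. Names were updated by accession for 26570 probes and by symbol for 3092, and 26005 kept the file's name. Testing a gene required its brightest probe to be well above background on 4 or more of the 8 arrays. limma 3.58.1 in R 4.3.3 (data.table, version 1.17.8) compared the groups, two-sided, and was tested on simulated data. Whether a probe lies in an untranslated region was not analysed here.

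Replicate numbers come from the titles and match slides in the file headers. Deviations from the group means correlated at 0.44, 0.43, 0.64 and 0.89 within pairs, all over 0.1, and at 0.12 to 0.54 between other samples of slides 1 to 3. Those other samples passed the limit of 0.1 too, so it cannot tell true pairs from false ones. Of 8 samples, 6 correlated best with the sample of their own number. The numbers were treated as pairs because both samples of a number share a slide, and the blocked value stands beside results it changes. Members and lists were chosen with earlier results of these data known. Named genes are all members, genes of the partner and pDC-linked lists called in either fit, a few partners by name, and the 5 features most correlated with Lag3. Called markers of other cell types, Bcl11a, Csf3r, Mcpt8 and Ccr2 were named after their values were seen. The partner and paralog list covers adaptors, ligands, relatives and pathway neighbours of the members. Cell type markers for pDC, conventional dendritic, T and NK, monocyte and macrophage, neutrophil, basophil and mast, and erythroid cells were summed, and none of these lists held a call in the unpaired fit, while the blocked fit called 2 pDC markers (Ccr9 and Tlr7), 5 conventional dendritic cell markers and 1 monocyte marker. The result of 1 further marker list is not reported here. Monocyte and macrophage markers summed to 68.2 to 94.0 times the 75th percentile in Sca-1- and 68.4 to 83.8 in Sca-1+, basophil and mast cell markers to 0.412 to 18.4 and 0.363 to 23.1, and erythroid markers to 0.291 to 0.986 and 0.356 to 0.486. Promoters are RefSeq sequences of GRCm38.p6, present for 8 of the 10 members. Figures used Python 3.11.15 and matplotlib 3.10.9.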

Additional observations from a re-analysis of the deposited data

Results flagged for a closer look

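Of 28 groups of 4 samples (14 probes in both groups), 3 had a sample far from the others, and chance alone marks about 1 in 20 groups. All were Sca-1- replicate 4, the array of slide 4. The first Siglech probe read 8.09 there, below the nearest sample at 9.16. The first Lair1 probe read 5.20, with the nearest sample at 5.80. Pld4 stood high instead, at 6.82, with the nearest sample at 6.16. The Sca-1+ sample of slide 4 lay on the same side of its group for all 3 probes, at 8.32, 5.47 and 7.07. Over the 14 probes, slide 4 minus the mean of slides 1 to 3 ran from -1.13 to 1.33 in Sca-1- and from -1.16 to 1.30 in Sca-1+ samples. Its cause was not tested.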

How the results depend on the processing

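Over the alternative scalings, filters, probe choices, left-out samples and pairings every member kept a higher mean in Sca-1+ except Siglech, which turned to -0.032 without Sca-1- replicate 4. Lag3 (0.73) became a call with the replicate block, and with array weights (0.93), and Klk1 with array weights (1.10) and with slide 4 left out (1.01). Adjusted p-values ranged from 0.0150 to 0.777 for Lag3 and from 0.0141 to 1.00 for Klk1. The other 8 members were called under none of these. The alternatives that combine the block with another choice were chosen after seeing the data. Lag3 was also called with the block without replicate 4 (0.84), with quantile normalization (0.75), with scaling on the median of detected probes (0.74) and with normexp correction (0.65). Klk1 was called with the block without replicate 4 (1.01) and with normexp (0.83), Lair1 with quantile (0.39) and normexp (0.36), and Siglech (0.25), Pacsin1 (0.31) and Pld4 (0.36) with normexp. The cause of these changes was not tested.

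With the replicate block alone, counts of higher and lower calls were 416 and 817 over all genes, against 25 and 314, with 1 member higher, 1 partner or paralog lower, and 8 higher and 1 lower in the other pDC-linked genes. Array weights gave 464 and 981 over all genes, 2 members, 10 and 1 partners, and 10 higher pDC-linked genes. Without a filter on dim probes the counts were 6 and 176, with 0 pDC-linked genes, and normexp gave 49 higher. Quantile normalization and the authors' series table each called 1 partner lower. With the block, quantile normalization gave 454 and 807, 2 members, 5 and 1 partners, and 11 and 1 pDC-linked genes. With the block, median scaling gave 450 and 789, 1 member, 1 partner lower, and 9 and 1 pDC-linked genes. With the block, normexp gave 1202 and 1373, 6 members, 15 and 2 partners, and 22 and 1 pDC-linked genes. The block without replicate 1 gave 69 higher genes, without replicate 2 gave 116, and without replicate 3 gave 0 pDC-linked genes. The block without replicate 4 gave 314 and 627, 2 members, 8 and 1 partners, and 5 pDC-linked genes.

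Leaving out 1 sample, or both samples of a slide, gave 1 to 264 higher and 0 to 615 lower genes (27 lower without replicate 3 in both groups). Leaving out 1 Sca-1- sample gave 7 to 89 higher and 156 to 374 lower genes. The left-out samples or slides gave 0 to 1 members, 0 to 8 higher and 0 to 1 lower partners, and 0 to 5 pDC-linked genes. Siglech then ranged from -0.032 to 0.54, Lag3 from 0.60 to 0.84 and Klk1 from 0.64 to 1.08. The scalings moved the median of all genes only between 0.023 and 0.038. With 4 arrays per group, the unpaired intervals of the members span up to a log2 difference of -0.58 to 1.08 (Siglech).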
